A study of Saccharomyces cerevisiae with 24 samples.

Results

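Mut3 is a budding yeast strain with a rewired osmosensing phosphorelay, and the comparison described here sets its RNA after 20 min in 0.4 M NaCl against its RNA after 10 min. It rests on 4 of the 24 RNA-seq libraries of the series, 2 at 10 min and 2 at 20 min, chosen by strain and time from the column names of the expression table. The series covers a wild type and 3 mutants, each at 0, 10 and 20 min of salt, with 2 libraries in each of the 12 groups. The wild type carries no substitution in these proteins per the labels. All 4 strains derive from W303-1a, lack the second osmosensor through sho1::HIS3 and carry a fluorescent reporter under the STL1 promoter at leu2. The relay of Mut3 has I13D in Ypd1, and in Sln1 the 4 substitutions E1101K, L1109K, E1110K and S1179D. In Mut1 the Ypd1 change is M20D, and Sln1 holds E1101K, E1110K and S1179D; Mut2 adds M92K to the Ypd1 of Mut1. Cultures in synthetic complete medium received the salt at mid-log phase. The labels do not say whether the 2 libraries of a group came from separate cultures, so p-values measure only the spread between libraries.

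At the yeast plasma membrane the histidine kinase Sln1 responds to osmolarity, and Ypd1 carries its phosphate to the response regulators Ssk1 and Skn7. When salt draws water from the cell the relay loses phosphate, Ssk1 switches on the MAP kinase kinase kinases Ssk2 and Ssk22, and these activate Hog1 through Pbs2. Active Hog1 raises glycerol synthesis and salt-induced transcription, while the transcription factors Msn2 and Msn4 induce general stress genes and growth genes such as those for ribosomes are turned down. With SHO1 absent, the Sln1 branch is the known route from osmolarity to Hog1 in these strains.

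Values are FPKM, read fragments scaled to gene length and library size, as deposited by the authors. SHO1 was listed at 0 in all 24 libraries, while the substitutions in SLN1 and YPD1 cannot be read from gene values. The strain's a mating type showed in the 5 marker genes of a cells, which summed to 9480 and 7374 FPKM at 10 min and to 8870 and 5582 FPKM at 20 min. The alpha-cell markers summed to 26.7 to 38.3 FPKM in the same libraries, and the 5 meiotic markers to 37.5 to 39.9 FPKM. Of the alpha-cell markers MF(ALPHA)1 was at 0, STE3 at up to 0.362, MF(ALPHA)2 at 15.6 to 22.5 and SAG1 at 10.2 to 15.4 FPKM. MFA1 and MFA2 made up most of the a-cell sums. BAR1, the lowest a-cell marker, had 18.1 and 25.1 FPKM at 20 min, close to MF(ALPHA)2. The top 10 features held 19.5% to 22.9% of all FPKM in the 4 libraries. One library of another group stood apart, library 0 of Mut2 at 20 min, where structural RNAs summed to 75006 FPKM against at most 14845 in the other 23. The number of differences from Mut2 is given with and without it, and all other values for Mut2 include it.

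Between 10 and 20 min of salt, stress and storage carbohydrate genes were among those that rose in Mut3, and ribosome biogenesis and ribosomal protein genes among those that fell. Of 6359 tested features, 393 rose (6.18%) and 509 fell (8.0%), of which 96 rose and 208 fell at least 2-fold on the log2(FPKM + 1) scale. A feature counts as called at an adjusted p under 0.05 in limma over all 24 libraries, and rose or fell is used only of called features. Features that fell had a median of 80.1 FPKM at 10 min, those that rose one of 31.0, and all tested ones 39.4. In all 902 calls the 2 values at one time lay beyond both values at the other, which was true of 50.1% of all tested features. FPKM is a share of each library's RNA, so a lower level of one gene cannot be told apart from a rise of other RNAs. A change of all RNA per cell is not seen in it, and a change in the mix of cells cannot be told apart either.

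The number of calls differed between fits. With a block for library number, 1541 features rose (24.2%) and 1152 fell (18.1%), and all 902 calls were among them in the same direction. Fitted on the 4 libraries alone, with no block, limma called 0 features, with 1279 at an unadjusted p under 0.05. Leaving out a library gave 406 calls without library 0 of the 10 min group, 590 without library 1, 533 without library 0 of the 20 min group and 503 without library 1, and 338 features (112 higher, 226 lower) were called each time.

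**Figure D1:**
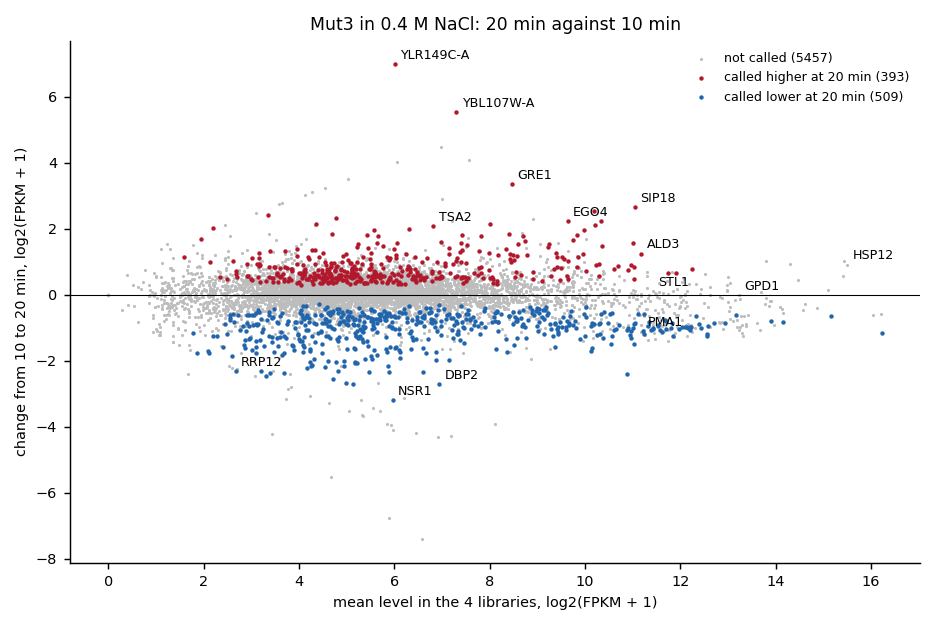
Change from 10 to 20 min in Mut3 (y axis, log2 of FPKM + 1) against mean level in the 4 libraries (x axis, log2 of FPKM + 1), 1 point for each of 6359 features. Called features (393 higher, red, and 509 lower, blue) lie at all levels. The 2 highest red points, picked out after their values were seen, were not matched to the reference annotation: YLR149C-A was listed at 0 in both libraries at 10 min and YBL107W-A in 1 of them, and their calls held in 0 and 1 of the 4 fits with a library left out.

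Short stretches of promoter shared by the genes that moved are shown first, because the same letters recur in many of them. The stress response element AGGGG, which Msn2 and Msn4 bind, lay within 250 bases before the start codon, on either strand, in 12 of the 15 genes named below for rising most. GRE1 and SIP18, the 2 with the largest rises, and TSA2 had no match. The windows below are 30 bases long, from the RefSeq R64 genome (the sacCer3 build), and read along the gene's own strand. Capitals mark AGGGG or its reverse complement, at the match nearest the start codon. The NQM1 and DCS2 windows also hold a further AGGGG in lower case.
RTN2: cataggcaatctCCCCTtattgttcaccct
PAI3: gtcgggaatctcAGGGGcgaccgcccccgg
NQM1: taggggcgaatgAGGGGagcatagtggatc
DCS2: aggggggaaataAGGGGtgacaataccaat
They lie at chrIV:94433-94462 on the plus strand, chrXIII:610477-610506 and chrVII:581584-581613 on the minus strand and chrXV:657104-657133 on the plus strand. The capitals begin 160, 129, 165 and 148 bases before the start codon. AGGGG was present in 18.8% of 5987 promoters of that length, in 42.8% of the 381 protein-coding genes that rose and in 9.70% of the 495 that fell.

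The PAC element GATGAG, a sequence typical of ribosome biogenesis promoters, lay in the same window in 12 of the 15 genes named for falling most. HXT2, TRM11 and YOL014W had no match. The element is in capitals here, as GATGAG or its reverse complement.
NSR1: ttgcaagggcagCTCATCgcaagaacgaaa
DBP2: tttacgccgatgCTCATCgcagaaaatttt
LTV1: aaaattttaagcGATGAGcatcgcctgaat
UTP23: tataattatcgtGATGAGcaagaagggaag
These windows are chrVII:807826-807855 on the minus strand, chrXIV:413472-413501, chrXI:176658-176687 and chrXV:333512-333541 on the plus strand, with the capitals beginning 187, 155, 111 and 68 bases before the start codon. GATGAG was in 17.1% of all promoters, 39.0% of those of genes that fell, 9.97% of those of genes that rose and 87.4% of the 167 promoters of the ribosome biogenesis list. The DBP2 and LTV1 windows also show the core of a second element of these promoters, RRPE (AAAATTTT), in lower case. That core was in 8.65% of all promoters, 33.9% of those of genes that fell and 74.3% of the biogenesis list. A match is a string of letters and not evidence of binding. AAAATTTT is its own reverse complement, and none of these 3 strings contains another on either strand.

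STL1, GPD1, GPP1 and GPP2 had no called change between the 2 times without the block, in STL1 after a large rise from 0 min. Of the 41 tested Hog1 targets of the osmostress list, 20 did rise. STL1, the glycerol and proton symporter whose promoter drives the reporter, had 2726 and 2567 FPKM at 10 min and 2901 and 2805 FPKM at 20 min in libraries 0 and 1, against 6.80 and 6.29 FPKM at 0 min. Its log2 change was 0.11 ± 0.11 (SE, adjusted p = 0.622, 95% interval -0.12 to 0.34), so a 2-fold change lies outside the interval. GPD1, which makes glycerol 3-phosphate, had 10187 and 9138 FPKM at 10 min and 10205 and 9013 FPKM at 20 min. Its interval ran from -0.30 to 0.28 on the log2 scale (adjusted p = 0.992). The 2 times overlap for GPD1, and for STL1 both values at 20 min lie above both at 10 min by a margin within the error. The glycerol 3-phosphatase genes were not called either. GPP1 had 10176 and 8938 FPKM and then 9124 and 8059 FPKM (log2 change -0.15, adjusted p = 0.577). GPP2 had 6862 and 7537 FPKM and then 8673 and 8958 FPKM, a log2 change of 0.29 that was not called without the block (adjusted p = 0.197) and was with it (adjusted p = 0.00648).

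Within glycerol metabolism the 2 genes that rose act on glycerol and dihydroxyacetone. Of 15 tested genes of glycerol synthesis, transport and breakdown, 2 rose and 0 fell, and with the block 7 rose. A share of 6.18% of all features rose, and 24.2% with the block. GCY1, a glycerol dehydrogenase, had 76.1 and 72.5 FPKM at 10 min and 286 and 241 FPKM at 20 min, a 3.50-fold rise (adjusted p = 2.04e-05). DAK1, dihydroxyacetone kinase, went from 626 and 754 FPKM to 1880 and 1968 FPKM, a 2.80-fold rise (adjusted p = 2.93e-05). Both genes kept their calls with each of the 4 libraries left out.

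**Figure D2:**
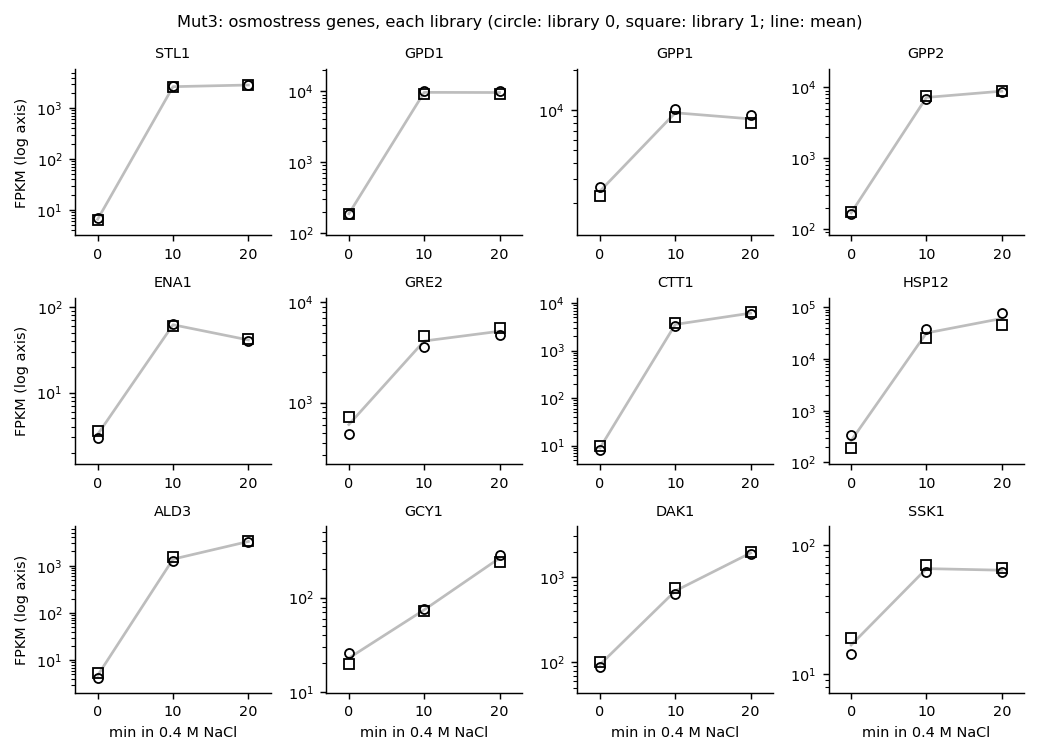
FPKM (log y axis) of 12 osmostress genes in each Mut3 library at 0, 10 and 20 min of 0.4 M NaCl (x axis); circles are library 0, squares library 1 and the line joins the means. STL1, GPD1, GPP1 and SSK1 are level between 10 and 20 min, while ALD3, GCY1 and DAK1 go on rising.

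Few genes of the relay and the MAP kinase cascade were called. Of 26 tested genes of the Sln1 phosphorelay and Hog1 cascade, 2 rose and 0 fell, or 7.69% and 0% against 6.18% and 8.0% of all features, and with the block 7 rose and 4 fell. SLN1 had 12.4 and 13.7 FPKM at 10 min and 14.4 and 16.5 FPKM at 20 min (log2 change 0.23, adjusted p = 0.381, and 0.0286 with the block). YPD1 had 72.3 and 66.3 FPKM and then 63.0 and 52.5 FPKM (log2 change -0.26, adjusted p = 0.663). SSK1, whose product Ypd1 keeps phosphorylated, had a log2 change of -0.04 (adjusted p = 0.956), and the other regulator gene SKN7 one of -0.09 (adjusted p = 0.944). HOG1 itself had a log2 change of -0.22 (adjusted p = 0.743).

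PBS2, the kinase gene upstream of HOG1, differed between library numbers as much as between times. It had 20.7 and 38.2 FPKM at 10 min and 36.1 and 55.6 FPKM at 20 min, so library 1 exceeded library 0 at both times. The log2 change of 0.65 was not called without the block (adjusted p = 0.553) and was called with it (adjusted p = 4.55e-05). The phosphatase gene PTP2 had a log2 change of 0.06 (adjusted p = 0.871), and PTP3 one of -0.27 (adjusted p = 0.112, and 0.0293 with the block).

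The 2 genes of this list that rose were SDP1 and STE11. SDP1, a MAP kinase phosphatase gene, went from 72.7 and 95.4 FPKM to 178 and 215 FPKM, a 2.33-fold rise (adjusted p = 0.00399), not called without library 0 of the 10 min group (adjusted p = 0.0624). STE11, a MAP kinase kinase kinase gene of the SHO1 branch, rose 1.33-fold (adjusted p = 0.0287), and its call held in 1 of 4 fits with a library left out. Of the 13 effector factors and kinases, 1 rose and 1 fell, or 7.69% each against 6.18% and 8.0% of all features. With the block 4 rose and 4 fell, beside 24.2% and 18.1% of all features. RCK2, a kinase that Hog1 activates, rose 1.45-fold (adjusted p = 0.00271), and MSN2 fell 1.53-fold (adjusted p = 0.00883). The call of MSN2 was lost without library 1 at 10 min (log2 change -0.52) or library 0 at 20 min (log2 change -0.56).

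The largest rise among the 15 genes named for rising most was that of GRE1. GRE1, which encodes a hydrophilin, had 37.7 and 87.6 FPKM at 10 min and 411 and 871 FPKM at 20 min, a 10.2-fold rise (log2 change 3.36 ± 0.64, adjusted p = 0.00273). Library 1 of GRE1 was above library 0 at both times, and both 20 min values lay above both 10 min values. Another hydrophilin gene, SIP18, had 630 and 481 FPKM and then 4706 and 2584 FPKM, a 6.32-fold rise (adjusted p = 0.00583), not called without library 0 at 20 min (adjusted p = 0.0671). EGO4 went from 244 and 312 FPKM to 1395 and 1217 FPKM, a 4.71-fold rise with the smallest adjusted p of the 15 (6.93e-05). EGO4 stayed called with each library left out.

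Of the 15 genes named for rising most, 13 others besides GRE1 and SIP18 rose between 3.60-fold (DCS2) and 5.82-fold (CPP3). They include TSA2, a thioredoxin peroxidase (4.21-fold), GND2, a 6-phosphogluconate dehydrogenase (4.02-fold), NQM1, a transaldolase (3.90-fold), PAI3, the cytoplasmic inhibitor of proteinase A (4.36-fold), RTN2, a reticulon-like protein of the endoplasmic reticulum (4.67-fold), UIP4 (5.0-fold), HPA2, an acetyltransferase (4.41-fold), LDS2 (3.91-fold), YCL048W-A (4.40-fold) and YCL001W-B (5.38-fold). Not all were above their 0 min level at 10 min. HPA2 had 4.0 and 6.79 FPKM at 0 min and 3.25 and 11.2 FPKM at 10 min, before 22.9 and 41.1 FPKM at 20 min, and YCL001W-B had 10.1 and 16.1 FPKM at 0 min, 1.68 and 2.80 FPKM at 10 min and 18.2 and 14.4 FPKM at 20 min.

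Several of these calls depended on single libraries. Without library 0 of the 10 min group the adjusted p was 0.150 for RTN2, 0.355 for HPA2, 0.173 for NQM1, 0.250 for DCS2, 0.105 for YCL001W-B and 0.0613 for LDS2. Without library 1 of the 20 min group it was 0.123 for RTN2, 0.235 for HPA2, 0.125 for NQM1 and 0.188 for DCS2. Without library 0 of the 20 min group it was 0.0788 for YCL001W-B, 0.0621 for HPA2 and 0.0655 for DCS2. With the block all 15 were called.

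**Figure D3:**
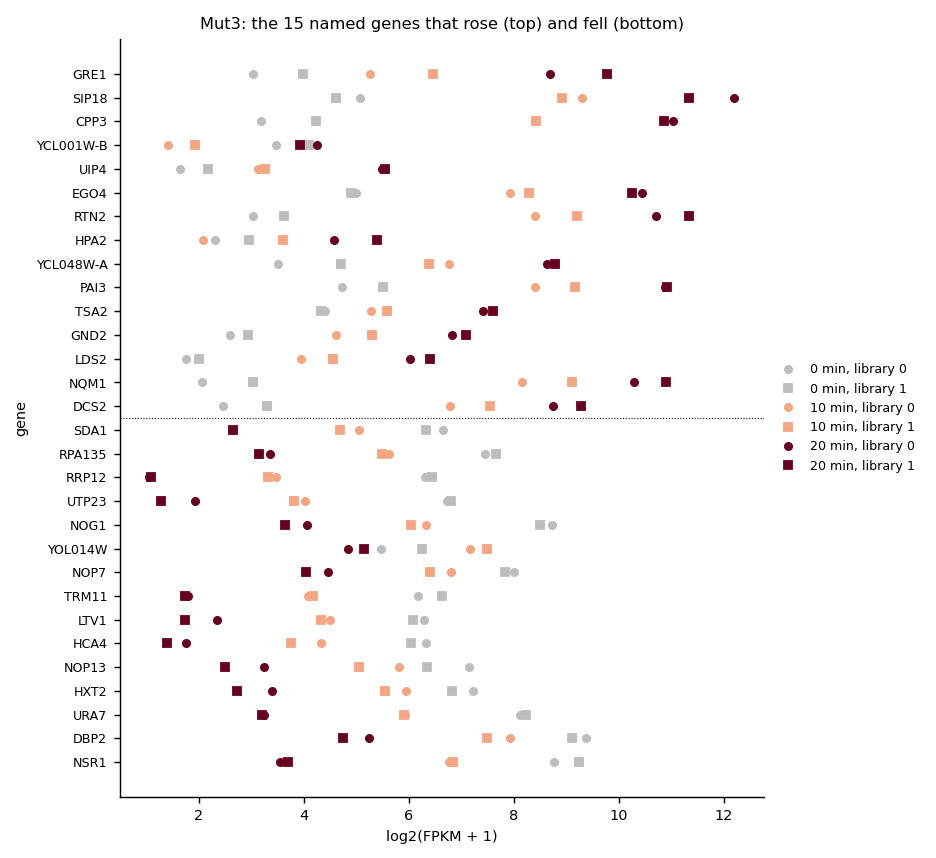
Level (x axis, log2 of FPKM + 1) in each of the 6 Mut3 libraries for the 15 named genes that rose (above the dotted line) and the 15 that fell (below it); grey is 0 min, orange 10 min and dark red 20 min, circles are library 0 and squares library 1. The 10 and 20 min values do not overlap for any of the 30, which the naming rule required.

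Of 61 tested general stress genes, targets of Msn2 and Msn4, 24 rose and 0 fell, against 6.18% of all features rising, and their median log2 change was 0.72 against 0.06 for all tested features. With the block 50 rose and 1 fell, and with 1 library left out between 10 and 20 rose. Their median level went from 29.5 FPKM at 0 min to 483 FPKM at 10 min and 1021 FPKM at 20 min. CTT1, cytosolic catalase, had 3345 and 3783 FPKM at 10 min and 5852 and 6454 FPKM at 20 min, a 1.73-fold rise (adjusted p = 0.0274) that was not called with any 1 of the 4 libraries left out (adjusted p 0.0676 to 0.193). HSP12, a small membrane-binding stress protein gene, had 38534 and 25404 FPKM and then 76304 and 45532 FPKM. Its 2 times do not overlap, and its log2 change of 0.91 was called with the block alone (adjusted p = 0.000127, against 0.220 without).

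Of 41 tested Hog1 targets of the osmostress list, 20 rose and 2 fell (27 and 5 with the block), with a median log2 change of 0.79, and between 9 and 16 rose with 1 library left out. ALD3, an aldehyde dehydrogenase, had 1252 and 1504 FPKM and then 3127 and 3387 FPKM, a 2.37-fold rise (adjusted p = 0.00397), with an adjusted p of 0.0541 without library 0 at 10 min. The 2 that fell were PRM10, with a log2 change of -0.87, and ENA1, the sodium pump gene. PRM10 overlaps another feature and its call was lost with any 1 of the 4 libraries left out (adjusted p 0.0805 to 0.241). ENA1 had 63.7 and 60.1 FPKM and then 40.3 and 42.0 FPKM, a 1.49-fold fall (adjusted p = 0.0213). ENA1 has near-identical neighbours, so its value is uncertain, and its call was lost with any 1 of the 4 libraries left out (adjusted p 0.0681 to 0.145). GRE2, a methylglyoxal reductase gene, had a log2 change of 0.33 that was called with the block (adjusted p = 0.0262) and not without (adjusted p = 0.490).

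Of 22 genes of trehalose and glycogen metabolism, 13 rose and 0 fell (17 with the block, 6 to 10 with 1 library left out), at a median log2 change of 0.62. Both arms of glycogen metabolism were among them. GDB1, the debranching enzyme, went from 31.3 and 34.0 FPKM to 91.2 and 106 FPKM (2.95-fold, adjusted p = 0.00161), and GPH1, glycogen phosphorylase, from 26.2 and 29.0 FPKM to 75.2 and 82.4 FPKM (2.79-fold, adjusted p = 0.00154). On the synthetic side, named after their values were seen, GSY2, glycogen synthase, had a log2 change of 0.86, and UGP1, which makes UDP-glucose, one of 0.90. PGM2, phosphoglucomutase, rose 2.22-fold (adjusted p = 0.00136). GSY2 kept its call in 2 of 4 fits with a library left out (adjusted p up to 0.0804), and the other 4 genes in all 4.

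The autophagy, proteasome and chaperone lists had median log2 changes of 0.53, 0.38 and -0.02, against 0.62 for trehalose and glycogen genes. Of 34 autophagy genes, 10 rose and 0 fell (22 and 3 with the block, 11 and 3 after median-ratio rescaling, and 4 to 7 rose with 1 library left out), led by ATG8, the ubiquitin-like protein of the autophagosome, from 224 and 208 FPKM to 503 and 426 FPKM (2.14-fold, adjusted p = 0.000613). Of 38 genes of the proteasome list, 9 rose and 1 fell, with a median log2 change of 0.38. The count that rose was 32 with the block, 3 after median-ratio rescaling and 1 to 7 with 1 library left out. The gene that fell was RPN4, the transcription factor of the proteasome genes, with a log2 change of -0.44, a call lost with any 1 of the 4 libraries left out (adjusted p 0.0822 to 0.117). Of 32 chaperone genes controlled by Hsf1, 7 rose and 7 fell with the block, near the 24.2% and 18.1% of all features. Without the block 3 rose and 1 fell, and the median log2 change was -0.02. SSA4 rose 3.06-fold (adjusted p = 0.000255), SSE2 2.15-fold (adjusted p = 7.77e-05) and HSP26 2.14-fold (adjusted p = 0.0202), and CUR1 fell 1.66-fold (adjusted p = 0.0126). HSP26 was not called without library 0 at 10 min (adjusted p = 0.186) or either 20 min library (0.0548 and 0.147), and CUR1 not without library 1 at 10 min (0.0908) or library 1 at 20 min (0.0995).

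Ribosome biogenesis made up the largest block of falling genes among the lists. Of 167 tested members 0 rose and 95 fell, or 56.9% against 8.0% of all features, and 160 of the 167 had a log2 change below 0. The median log2 change was -1.03. The median level had already dropped from 90.7 FPKM at 0 min to 22.9 FPKM at 10 min, and it was 12 FPKM at 20 min. With the block 134 fell, and with 1 library left out between 63 and 86 fell, of which 57 fell each time.

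NSR1, yeast nucleolin, fell most, from 109 and 114 FPKM to 10.7 and 12 FPKM, or 9.11-fold (log2 change -3.19 ± 0.21, adjusted p = 8.70e-07). DBP2, a DEAD-box RNA helicase gene, went from 243 and 180 FPKM to 37.0 and 25.9 FPKM (6.57-fold, adjusted p = 9.19e-05). LTV1, needed for export of the small subunit, went from 21.8 and 19.2 FPKM to 4.10 and 2.35 FPKM (5.19-fold, adjusted p = 5.60e-05). In these 3 genes both 20 min values lay far below both 10 min values. RRP12, a preribosome export factor, reached 1.09 and 1.15 FPKM from 10.2 and 9.01 FPKM, where the added 1 FPKM makes the fitted 5.0-fold fall smaller than the ratio of the levels (adjusted p = 3.74e-06).

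The remaining members of the 15 that fell most are largely of the same kind. HCA4, a helicase of small subunit processing, fell 5.53-fold, NOP13 5.90-fold, NOP7 5.11-fold, NOG1, a GTPase of the large subunit, 5.01-fold, UTP23, of the small subunit processome, 5.0-fold, SDA1 4.64-fold and TRM11, a tRNA methyltransferase, 5.15-fold. URA7, CTP synthase, went from 59.8 and 59.3 FPKM to 8.47 and 8.29 FPKM (6.45-fold, adjusted p = 5.37e-07). YOL014W fell 5.08-fold. Of all 15, NOP13 alone lost its call with a library left out, at an adjusted p of 0.0822 without library 0 at 10 min and 0.0750 without library 1 at 20 min.

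Of 39 subunit and factor genes of RNA polymerases I and III, 8 fell and 0 rose (17 and 3 with the block, and 5 to 6 fell with 1 library left out). RPA135, the second largest subunit of polymerase I, went from 48.2 and 44.1 FPKM to 9.30 and 7.84 FPKM (4.93-fold, adjusted p = 8.70e-07). RPA190, the largest, fell 4.47-fold (adjusted p = 0.000133), RPA34 4.13-fold (adjusted p = 4.10e-05) and RPA43 3.85-fold (adjusted p = 7.83e-05). The median log2 change of the list was -0.20. Of its genes 20.5% fell and 0% rose without the block, against 8.0% and 6.18% of all features. Among 14 regulators of ribosomal genes, RRB1 fell 4.46-fold (adjusted p = 0.000288) and TOD6, a repressor that binds PAC, 2.36-fold (adjusted p = 0.00374), and none rose.

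Of 137 tested ribosomal protein genes, 65 fell and 0 rose, 134 had a log2 change below 0, and the median was -0.97. Their median level was 5109 FPKM at 0 min, 3663 FPKM at 10 min and 1882 FPKM at 20 min, so the drop after 10 min was the larger one. RPL16A went from 1931 and 1485 FPKM to 606 and 509 FPKM (3.05-fold, adjusted p = 0.00203), and RPS14B from 565 and 513 FPKM to 185 and 190 FPKM (2.86-fold, adjusted p = 7.09e-05). The number that fell was 127 with the block, where 1 rose, 44 after median-ratio rescaling, and 33 to 55 with 1 library left out. GATGAG was in 10.2% of these 137 promoters, below the share in all promoters.

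Of 41 translation factor genes, 15 fell and 1 rose (31 and 2 with the block), at a median log2 change of -0.66, and 7 to 14 fell with 1 library left out. YEF3, elongation factor 3, went from 1957 and 1436 FPKM to 585 and 457 FPKM (3.24-fold, adjusted p = 0.00112). Its paralog HEF3 was the gene that rose, from 2.98 and 3.17 FPKM to 7.13 and 7.31 FPKM (2.02-fold, adjusted p = 0.000360). PAB1, the poly(A)-binding protein gene, fell 1.94-fold (adjusted p = 0.00683), with an adjusted p of 0.0869 without library 0 at 10 min and 0.0824 without library 1 at 20 min.

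**Figure D4:**
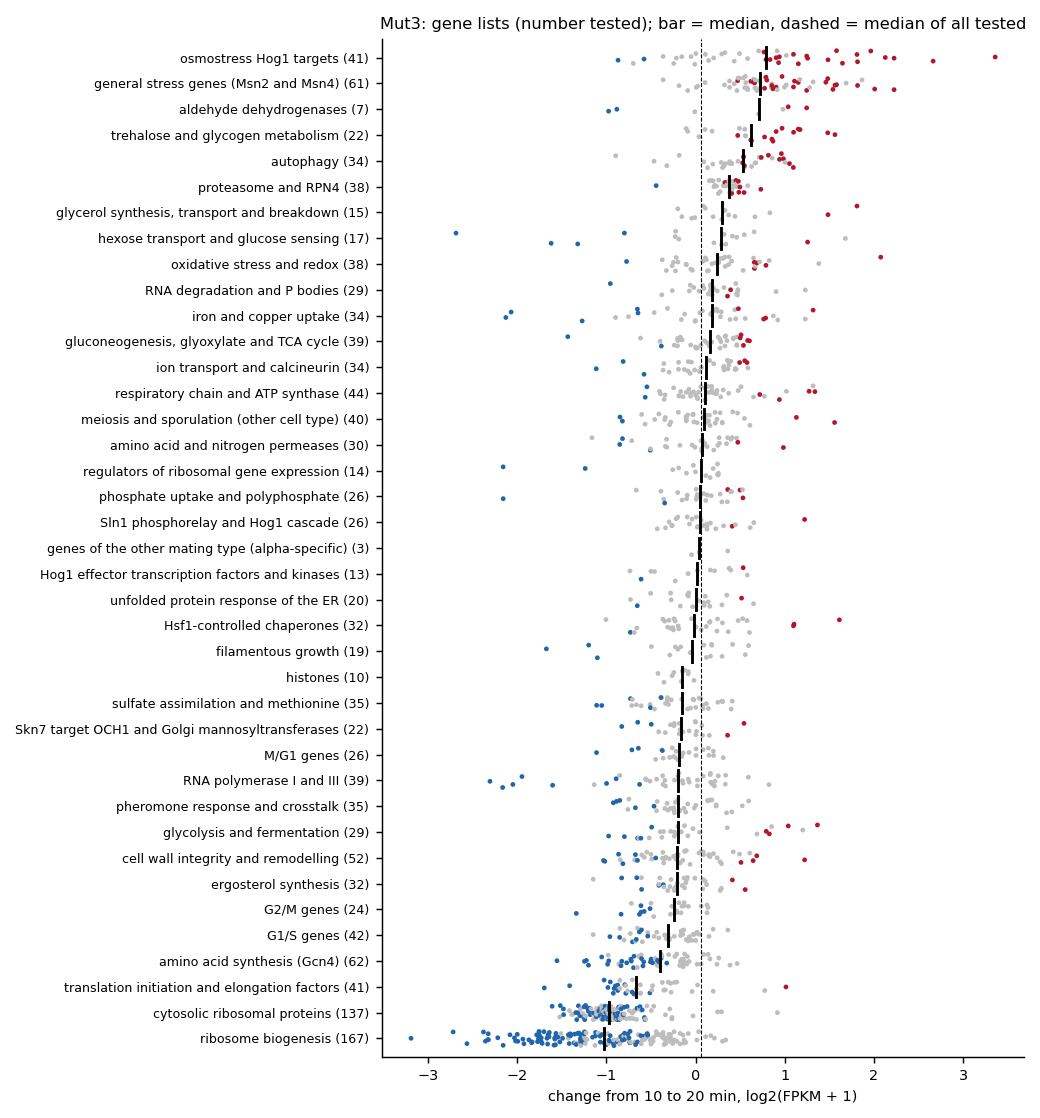
Change from 10 to 20 min in Mut3 (x axis, log2 of FPKM + 1) for the tested genes of each list (y axis, with the number tested); red rose, blue fell, grey was not called, black bars are list medians and the dashed line is the median of all tested features, 0.06. Osmostress and general stress genes lie at the top with medians of 0.79 and 0.72, ribosomal proteins and ribosome biogenesis at the bottom with -0.97 and -1.03.

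Of 62 tested amino acid synthesis genes controlled by Gcn4, 24 fell and 0 rose (38 and 2 with the block), at a median log2 change of -0.40, and 15 or 16 fell with 1 library left out. LEU9, an isopropylmalate synthase, went from 69.2 and 59.5 FPKM to 21.2 and 21.2 FPKM (2.93-fold, adjusted p = 9.46e-06), and ARG1, argininosuccinate synthetase, from 164 and 185 FPKM to 72.5 and 75.7 FPKM (2.34-fold, adjusted p = 0.000332). GCN4 itself fell, with a log2 change of -0.48, and kept the call in 2 of 4 fits with a library left out (adjusted p up to 0.0986). The Gcn4 site TGACTC was in 54.8% of these 62 promoters and 6.26% of all promoters, and it was in 8.28% of the promoters of all genes that fell. A TGACTC that is followed by ATC also holds GATGAG on the other strand. Of the sulfate assimilation and methionine genes 14.3% fell and 0% rose, against 8.0% and 6.18% of all features. Among 35 genes of sulfate assimilation and methionine, 5 fell and 0 rose (14 and 4 with the block, and 2 to 4 fell with 1 library left out), among those that fell SAM1, S-adenosylmethionine synthetase (2.16-fold, adjusted p = 0.000230).

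Hexose transporter genes moved in both directions. Of 17 genes of hexose transport and sensing 1 rose and 4 fell, or 5.88% and 23.5% against 6.18% and 8.0% of all features. With the block 7 rose and 5 fell, beside 24.2% and 18.1% of all features. HXT2, a glucose transporter, went from 61.1 and 45.7 FPKM to 9.51 and 5.68 FPKM (6.42-fold, adjusted p = 7.57e-06), HXT4 fell 3.07-fold (adjusted p = 0.000509) and HXT3 2.50-fold (adjusted p = 0.00357, and 0.0569 without library 0 at 10 min). HXT5, a transporter of slow-growing cells, rose from 366 and 421 FPKM to 865 and 1017 FPKM (2.39-fold, adjusted p = 0.000641). Hexokinase gene HXK2 fell, with a log2 change of -0.80. In glycolysis and fermentation 4 of 29 rose and 5 fell (8 and 13 with the block, 1 to 2 and 3 to 4 with 1 library left out). Without the block 13.8% of that list rose and 17.2% fell, against 6.18% and 8.0% of all features. The aldehyde dehydrogenases split likewise, as ALD3 and ALD4 rose (ALD4 2.05-fold, adjusted p = 0.0231) and ALD6, the main cytosolic form, fell from 5689 and 5427 FPKM to 2876 and 2781 FPKM (1.96-fold, adjusted p = 7.77e-05), as did ALD5 (1.84-fold, adjusted p = 0.000641). ALD4 was called in 1 of 4 fits with a library left out.

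Genes of the cell surface moved in both directions. PMA1, the plasma membrane proton pump, went from 3542 and 2929 FPKM to 1576 and 1407 FPKM (2.16-fold, adjusted p = 0.00102). FRE1, a metal reductase, fell 4.36-fold (adjusted p = 0.000172) and the copper transporter gene CTR1 4.19-fold (adjusted p = 0.00814, and 0.0734 without library 0 at 20 min and 0.0586 without library 1 at 10 min), while 4 of the 34 iron and copper uptake genes rose and 5 fell in all (13 and 8 with the block, 0 to 2 and 2 to 4 with 1 library left out). Of the iron and copper uptake genes 11.8% rose and 14.7% fell without the block, against 6.18% and 8.0% of all features. PHO3, an acid phosphatase, fell from 52.9 and 45.6 FPKM to 10.3 and 10.2 FPKM (4.45-fold, adjusted p = 5.37e-07). In the cell wall list 4 of 52 rose and 7 fell, or 7.69% and 13.5% against 6.18% and 8.0% of all features. Both counts were lower with any 1 library left out. With the block 7 rose and 19 fell, beside 24.2% and 18.1% of all features. Among those that fell without the block was GAS1, a glucan-remodelling enzyme (2.02-fold lower, adjusted p = 0.000607).

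Of 42 G1/S genes 7 fell, of 24 G2/M genes 7 fell, of 26 M/G1 genes 4 fell, and none of them rose, counts of 4 to 6, 2 to 5 and 0 to 1 with 1 library left out. Without the block the shares of the 3 lists that fell were 16.7%, 29.2% and 15.4%, against 8.0% of all features. With the block 20, 12 and 8 fell, and 2 G1/S genes (RFA1 and PRI1) and 1 M/G1 gene (MCM2) rose. CLB1, a mitotic cyclin gene, went from 19.5 and 24.3 FPKM to 6.43 and 9.95 FPKM (2.52-fold, adjusted p = 0.00207), and MCD1, a cohesin subunit gene, fell 1.94-fold (adjusted p = 0.00350). The 10 histone genes had 0 calls, with a median log2 change of -0.15 and all 10 below 0, and with the block HTA1 and HTB2 fell. Of 35 genes of the pheromone response, 5 fell and 0 rose (11 and 4 with the block, and 2 to 5 fell with 1 library left out). Without the block 14.3% of the pheromone response genes fell and 0% rose, against 8.0% and 6.18% of all features. FUS1, the usual readout of crosstalk to that pathway, had 8.40 and 11.7 FPKM at 10 min and 4.30 and 5.60 FPKM at 20 min, against 2.55 and 2.94 FPKM at 0 min. The 1.85-fold fall of FUS1 (adjusted p = 0.0125) was not called without library 1 at 10 min (adjusted p = 0.129) or library 0 at 20 min (adjusted p = 0.115). OCH1, the mannosyltransferase gene used as a readout of Skn7, had a log2 change of -0.18 (adjusted p = 0.627, and 0.0444 with the block).

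Without the block, the remaining lists changed at rates closer to the background. The share of members that rose lay between 0% and 13.2% for oxidative stress, respiratory chain, gluconeogenesis and TCA cycle, RNA degradation, ergosterol, unfolded protein response, amino acid permease, phosphate, ion transport, filamentous growth, mannosyltransferase and meiosis lists, and the share that fell between 2.63% and 15.8%. With the block some lay further from the 24.2% of all features that rose and the 18.1% that fell. Of 38 oxidative stress genes 17 rose and 4 fell, and of 39 gluconeogenesis and TCA cycle genes 15 rose and 4 fell. Of 22 mannosyltransferase genes 2 rose and 8 fell, and of 32 ergosterol genes 3 rose and 10 fell. In the fit without the block NRG2, a repressor gene, fell 3.18-fold (adjusted p = 0.00166), and CYB2, cytochrome b2, rose 2.53-fold (adjusted p = 0.00297).

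The wild type, Mut1 and Mut2 passed through the same 10 min interval, and their libraries are separate from those of Mut3, though all share 1 fit. Across 5713 protein-coding genes the change in Mut3 had a Pearson correlation of 0.783 with that in the wild type, 0.537 with Mut1 and 0.484 with Mut2. RPL22A, RPL43A, RPL36B and RPL39, described below, were left out of these correlations after their values were seen. They include the 2 features called as changing differently from the wild type. Genes are not independent replicates and the strains share their annotation and processing, so these are descriptions. The SD of the changes was 0.58 in Mut3, 0.56 in the wild type, 0.46 in Mut1 and 0.44 in Mut2 on the log2 scale. In the wild type 390 features rose and 514 fell. Of these, 255 and 413 were also called the same way in Mut3, which is 64.9% of the Mut3 risers and 65.4% of the wild-type risers, and 81.1% of the Mut3 fallers and 80.4% of the wild-type fallers. In Mut1 88 rose and 103 fell, and 72 and 91 of these did so in Mut3, or 81.8% and 88.3% of the Mut1 calls and 18.3% and 17.9% of the Mut3 calls. In Mut2 136 rose and 138 fell, and 97 and 108 of these did so in Mut3, or 71.3% and 78.3% of the Mut2 calls and 24.7% and 21.2% of the Mut3 calls.

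**Figure D5:**
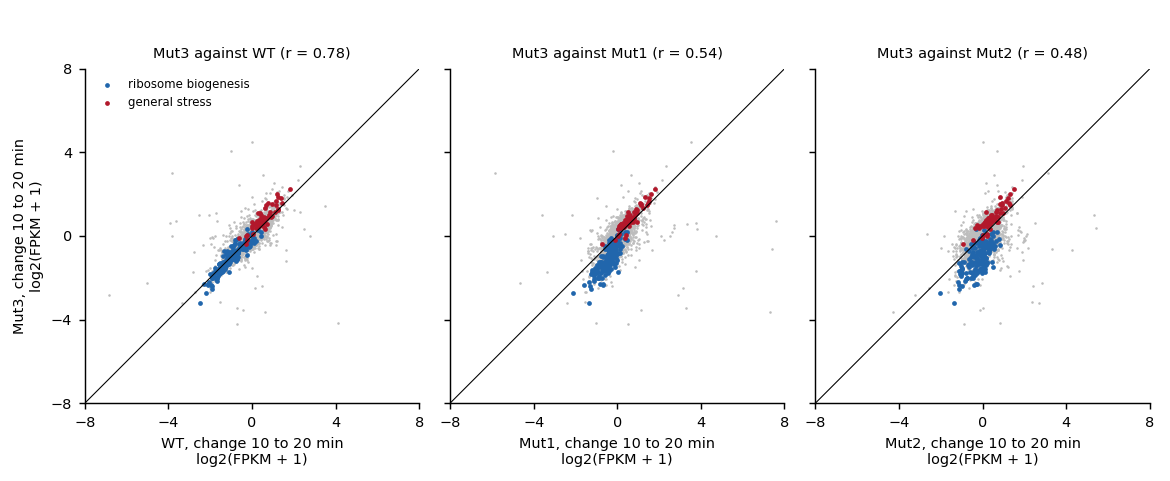
Change from 10 to 20 min in Mut3 (y axis) against that in the wild type, Mut1 and Mut2 (x axes), log2 of FPKM + 1, 1 point for each of 5713 protein-coding genes. RPL22A, RPL43A, RPL36B and RPL39 are not drawn. Blue marks ribosome biogenesis, red general stress genes and the line equal change. Blue points follow the line against the wild type (list medians -1.03 and -1.04) and are shifted below it against Mut1 and Mut2 (list medians -0.38 and -0.15).

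Set beside the wild type, few features of Mut3 were called as changing differently. The test of the difference between the changes called 2 of 6359 features (0.0315%) and 5 with the block (0.0786%), with 129 at an unadjusted p under 0.05 in the fit without it. The median half-width of the 95% interval of such a difference was 0.79 on the log2 scale. The 2 were RPL22A, lower by 4.99, and RPL43A, lower by 4.50 (adjusted p = 0.0119 for both). RPL22A had 4.44 and 8.36 FPKM in the wild type at 10 min and 98.5 and 146 FPKM at 20 min, but 154 and 238 FPKM in Mut3 at 10 min already. RPL22A, RPL43A, RPL36B and RPL39 share one pattern over the 24 libraries, high in 12 (all at 20 min and Mut2 and Mut3 at 10 min) and low in the other 12. Library preparation or processing that differed between those sets and the strains' own difference cannot be told apart, and without library 0 of Mut3 at 10 min, or library 1 of Mut3 at 20 min, the count against the wild type was 0. In the compared libraries alone 2 other features were called, both higher in Mut3, and the adjusted p was 0.218 for RPL22A and 0.167 for RPL43A.

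Against Mut1 the change differed for 16 features (0.252%), all lower in Mut3, and for 403 with the block (6.34%), of which 148 were higher and 255 lower. Of the 16, 4 belong to the ribosome biogenesis list, and RPL22A, RPL43A and RPL36B to the set above. PLB2, a phospholipase B gene, fell from 37.7 and 36.6 FPKM to 6.67 and 7.96 FPKM in Mut3 but had 12 and 14.9 FPKM and then 9.42 and 12.1 FPKM in Mut1, a difference of -1.90 (adjusted p = 0.00562). The 2 strains differed most at 10 min for PLB2. TRM11 fell to 2.46 and 2.36 FPKM in Mut3 and had 7.24 and 7.61 FPKM in Mut1 at 20 min, a difference of -1.84 (adjusted p = 0.0397). With 1 of the 8 libraries left out, 1 feature (without library 0 of Mut1 at 10 min) to 9 features (without library 1 of Mut1 at 20 min) were called, and RPL43A was the one called each time.

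Against Mut2 the change differed for 46 features (0.723%), 43 of them lower in Mut3, and for 987 with the block (15.5%), of which 478 were higher and 509 lower. Of the 46, 15 belong to the ribosome biogenesis list, whose median change was -1.03 in Mut3 and -0.15 in Mut2. Without library 0 of Mut2 at 20 min 6 were called, of which 5 were among the 46, and with other libraries left out between 6 (library 1 of Mut3 at 10 min) and 137 (library 1 of Mut2 at 20 min). RRP12 went from 9.72 and 8.56 FPKM to 9.19 and 5.93 FPKM in Mut2, beside the fall to 1.09 and 1.15 FPKM in Mut3, a difference of -2.05 (adjusted p = 0.00555, and 0.0108 without that Mut2 library). TRM2, a tRNA methyltransferase gene picked out after its values were seen, went from 11.4 and 8.71 FPKM to 16.4 and 12.4 FPKM in Mut2 and from 13.0 and 10.7 FPKM to 5.13 and 4.59 FPKM in Mut3, a difference of -1.62 (adjusted p = 0.00614, and 0.0299 without it). The levels at 10 min were close in both strains for RRP12 and TRM2, and the 20 min levels were not.

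STL1 was one of 3 features called with a higher change in Mut3 than in Mut2 in the fit without the block, against 478 with it. In Mut2 it went from 1713 and 1623 FPKM to 1014 and 815 FPKM, while Mut3 kept 2901 and 2805 FPKM, and the difference was 0.98 (95% interval 0.66 to 1.31, adjusted p = 0.00802, and 0.00547 without that Mut2 library). Without library 1 of Mut3 at 10 min its adjusted p was 0.0604, and after median-ratio rescaling 0.182. In Mut1 STL1 went from 1797 and 1843 FPKM to 1332 and 1382 FPKM, a difference from Mut3 that was not called (0.53, adjusted p = 0.293, interval 0.21 to 0.86). In the wild type it went from 2588 and 2532 FPKM to 3095 and 3009 FPKM (difference -0.14, interval -0.47 to 0.18). AIM19 was another of the 3, higher by 0.87 (adjusted p = 0.0264), and its call was lost without that Mut2 library (adjusted p = 0.138). The third, YLR154W-F, was not matched to the reference annotation and was listed at 0 in both Mut2 libraries at 20 min.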

How the data were processed

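RNA from 24 yeast samples was sequenced with a stranded mRNA kit, per the labels' protocols. The authors deposited FPKM values for 7126 features, made with TopHat2 and Cuffdiff on sacCer3, per the submitters' processing notes; tool versions and depth are not stated, so no counting error can be attached. Names of 6079 features matched RefSeq R64, and 481 features had 0 throughout.

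The 6359 features averaging 1 FPKM or more over all libraries, 5717 of them protein-coding, were tested on log2(FPKM + 1) with limma 3.58.1 in R 4.3.3. The fit had 12 group means, 12 residual degrees of freedom, a variance trend and Benjamini-Hochberg adjustment over all tested features, two-sided. Fold changes on that scale understate the change of low features. The script was tested on simulated data with independent noise in each library. That simulation lacked the shared deviation of same-numbered libraries given below, so it does not bear on how the block moves the calls. Column suffixes 0 and 1 name the libraries; how they relate to the labels' replicate numbers is not stated. Same-numbered libraries deviated together in all 66 pairs of groups (correlation 0.230 to 0.601, and 0.330 between the Mut3 groups compared), so the fit with the number as a block is given where it changes a call.

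Of tested features, 175 overlap another on the same locus and 162 have a near copy (blastn 2.17.0, 95% identity over 50% of the length); they were left out of the 15 genes named in each direction. Those were the largest called changes of protein-coding genes averaging 5 FPKM or more whose times did not overlap; besides them a panel of osmostress genes, up to 8 genes each way per strain difference and up to 4 called genes per list were named. GCN4, HXK2, RPN4, RFA1, PRI1, MCM2, HTA1, HTB2, PRM10, GSY2, UGP1, TRM2, RPL39 and 3 features without a reference match fall outside the rule and were chosen after their values were seen. The libraries compared, the 39 gene lists and the rule were chosen with earlier results of these data known. Alternatives were other pseudocounts, filters, rescaling, blocks, sets of libraries and leaving out each library.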

Additional observations from a re-analysis of the deposited data

Results flagged for a closer look

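The change from 10 to 20 min differed between Mut3 and another strain, by limma's test of the difference over all features, for 20 genes named by the rule. Values are log2, the Mut3 change minus the other strain's. TRM2, named outside the rule, was also called, at -1.17 against Mut1 and -1.62 against Mut2. With any 1 of the 8 compared libraries left out, the TRM2 call against Mut1 was lost and that against Mut2 held. RPL22A was lower in Mut3 by -4.99 against the wild type and -4.56 against Mut1, RPL43A by -4.50 and -5.31, and RPL36B by -3.52 against Mut1. These 3 follow the step over the 24 libraries described above.

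Against Mut1 the values were -1.85 for NSR1, -1.84 for TRM11, -1.64 for UTP23, -1.49 for RRP12, -1.21 for RPA135, -1.90 for PLB2, -1.52 for RKI1, -1.11 for GAP1 and -0.96 for PHO3. RKI1, ribose-5-phosphate isomerase, and the other 8 all changed further down in Mut3. None of these 9 was called in all 8 fits with a library left out.

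Against Mut2 they were -1.82 for NSR1, -1.55 for URA7, -2.22 for TRM11, -1.90 for NOG1, -2.00 for UTP23, -2.05 for RRP12, -1.42 for RPA135, -1.83 for PLB2, -1.83 for RKI1, -2.01 for RPA34, -1.52 for SFG1, -0.995 for IME2, -0.90 for PHO3 and -1.91 for TOD6, and 0.87 for AIM19 and 0.98 for STL1. Without library 0 of Mut2 at 20 min, RRP12, PLB2 and STL1 kept the call and the others of this paragraph did not.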

How the results depend on the processing

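The 902 calls between 10 and 20 min in Mut3 became 2693 with the replicate block, 2696 with the block within each strain, 2768 with the block and median-ratio rescaling, 1587 in the 4 libraries alone with the block and 0 in them alone without it, and 406 to 590 with 1 library left out. The 2 differences from the wild type became 1 with rescaling, 5 with the block and 5 with it within each strain, 7 with block and rescaling, 6 in the compared libraries alone with the block (3 higher, 3 lower), 2 in them alone without it (both higher in Mut3, and neither of the 2 lower calls), and 0 to 3 with 1 library left out. The 16 from Mut1 became 403, 381 and 556 with the block, the block within strains and the block with rescaling, 2 in the compared libraries alone, 68 there with the block, and 1 to 9 with 1 library left out. The 46 from Mut2 became 987, 1030 and 1207 in the same order, 0 in the compared libraries alone, 14 there with the block, 6 without library 0 of Mut2 at 20 min, and 6 to 137 with 1 library left out. The causes were not tested. The block with rescaling, the fit without that Mut2 library and the protein-coding fit were added after seeing the data.

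Of the 165 named genes whose change in Mut3 was followed across the fits, direction changed for 4, none of them called. Other features were not followed in this way. With 1 library left out the log2 change ran from -0.0982 to 0.0810 for GPD1, -0.308 to 0.121 for SKN7, -0.122 to 0.0438 for SSK1 and -0.00207 to 0.129 for PTP2. PTP2 was at -0.000209 after rescaling, with and without the block. Depth is unknown, so what it limits could not be assessed.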
